A study of Rattus norvegicus with 56 samples.

Results

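The short constitutive H3K27me3 regions without H3K4me3 are stretches of the rat genome under 5000 bp that carried a peak of H3K27me3 (histone H3 trimethylated at lysine 27) in every list of untreated brain tissue and had no H3K4me3 peak (trimethylated lysine 4) within 2000 bp. They were found by joining overlapping peaks of the 4 untreated H3K27me3 lists into 493767 regions, keeping the 19530 with a peak in all 4 lists, called constitutive here, and applying both limits. The members were thus chosen by measured values: peaks of the 4 untreated H3K27me3 lists, their joined length and the distance to peaks of the 4 untreated H3K4me3 lists. This left 11723 members, 60.0% of the constitutive regions and 2.37% of all joined regions. The other constitutive regions were 6422 short ones with an H3K4me3 peak within 2000 bp, 522 long ones (5000 bp or more) without and 863 long ones with such a peak. Membership depended on the smallest lists. Asking for a peak in only 3 lists gave 12041 and 12336 members without the 21-month ipsilateral and contralateral lists, but 20022 without the 13-month ipsilateral list and 38212 without the 13-month contralateral list.

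Every animal had an intracerebral haemorrhage, which is bleeding within the brain, and tissue was profiled by chromatin immunoprecipitation and sequencing (ChIP-seq). The groups were ipsilateral brain (the haemorrhage side) of rats labelled 21 months old given plasma of 3-month rats, the same given plasma of 22-month rats, and, with no agent, ipsilateral and contralateral brain at 21 months and at 13 months. For the older age the series text says 22 months, and the labels' age is used here. H3K27me3 and H3K9ac (acetylated lysine 9) were profiled in all 6 groups, and H3K4me3 in the 4 untreated groups only. Each untreated list pools 2 ChIP libraries and each plasma list holds 1, so no value has a spread between replicates and no difference between groups was tested. Strain, sex, how the haemorrhage was made and whether the libraries came from separate animals are not given in the sources used here. No group without haemorrhage is among the samples. The tissue was not sorted into cell types, so a mark in a few cells and a weak mark in all cells cannot be told apart.

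H3K27me3 is laid down by the enzyme complex PRC2 and read by PRC1, together called the Polycomb system, which keeps developmental genes silent. In many tissues it covers CpG-rich promoters, where H3K4me3 can lie beside it, and spreads from there as broad, weaker domains over neighbouring sequence. H3K9ac marks active promoters and enhancers and is laid down by acetyltransferases. The same histone H3 lysine 27 can carry an acetyl group in place of the methyl groups at active elements. The members are the short constitutive regions that lie away from any H3K4me3 peak.

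The H3K27me3 lists differed widely in size. The list with 3-month plasma had 37241 peaks and that with 22-month plasma 51178. The untreated lists had 300668 peaks at 21 months ipsilaterally and 367061 contralaterally, and at 13 months 117866 ipsilaterally and 51805 contralaterally. ChIP tags kept per H3K27me3 list ran between 35621686 and 117740131, with 15% to 52% duplicates. H3K9ac lists had 50651 to 123863 peaks, and H3K4me3 lists 30356 to 35063.

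The members were short by the rule, and weakly enriched beside the other constitutive regions. Their joined length had a median of 1573 bp (range 248 to 4999 bp), against 1821.5 bp in the short regions with H3K4me3 and 383 bp in all joined regions. Between 1000 and 2000 bp lay 40.2% of the members, 24.3% were shorter and 35.5% longer. Together they spanned 21.4 Mb. The authors' fold of a peak is its enrichment over the local background, and where a member held several peaks of a list the highest was used. Median folds were 3.53 in 21-month ipsilateral tissue, 4.28 in 21-month contralateral, 2.96 in 13-month ipsilateral and 3.42 in 13-month contralateral tissue. The lowest of a member's 4 folds had a median of 2.69, against 3.15 in the short regions with H3K4me3, 3.38 in the long ones without and 5.87 in the long ones with H3K4me3. It reached 4 in 465 members and 6 in 40, and was below 2 in 609. These folds chose the members and are given as a description.

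**Figure D1:**
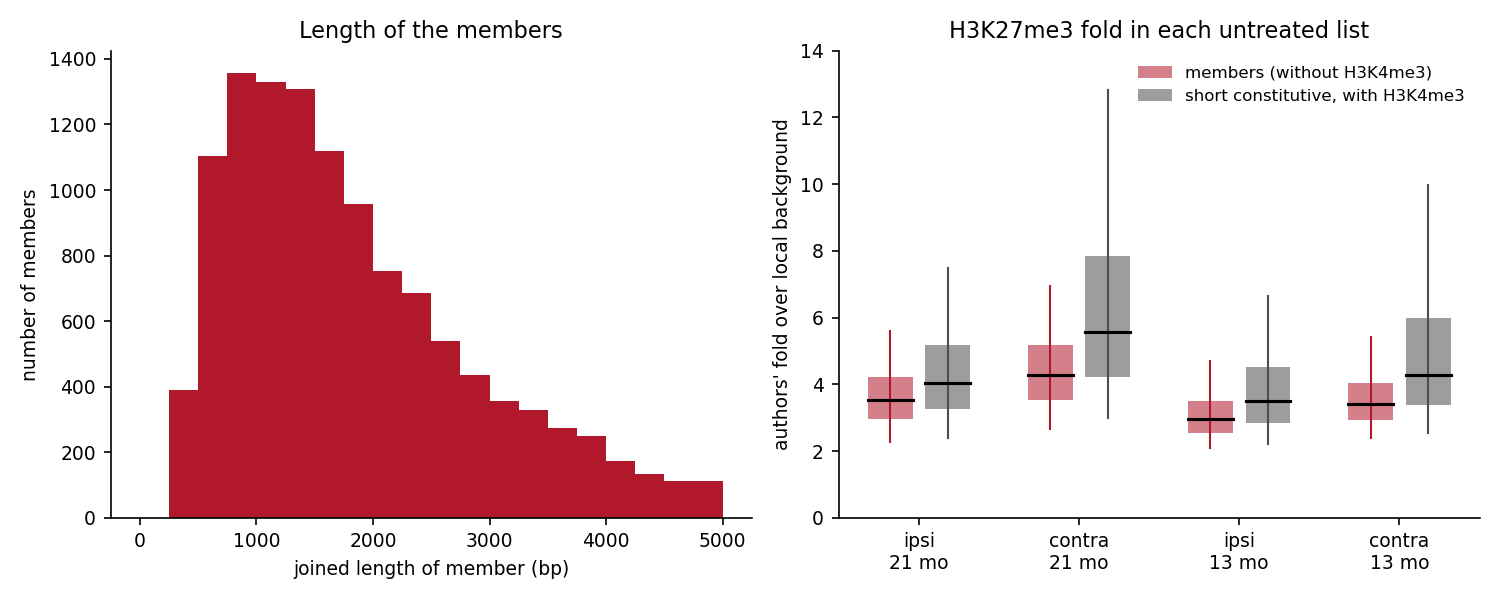
Left, number of members by joined length in steps of 250 bp. Right, the authors' fold over local background in each untreated H3K27me3 list (lists that chose the regions) for members (red) and for short constitutive regions with H3K4me3 (grey), with the median as a line, the box from the 25th to the 75th percentile and whiskers to the 5th and 95th. Medians of the members, 2.96 to 4.28, lie below those of the short regions with H3K4me3 in every list.

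Within a member, the 4 lists marked unequal parts of it. Peaks of the 21-month lists covered a median of 88.2% of a member's joined length on the ipsilateral side and 84.8% on the contralateral side, while those of the 13-month lists covered 45.9% and 28.4%. The sequence under a peak in all 4 lists had a median of 209 bp, 13.7% of the length, and 2597 members (22.2%) had no base in common to the 4. Over all members this shared sequence came to 3.32 Mb. The strongest summits of the 4 lists lay within 200 bp of each other in 18.9% of members and over 1000 bp apart in 29.9%. A single peak in each list made up 39.9% of the members. "Constitutive" thus describes the joined region as a whole.

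The contralateral fold was mostly the higher one, and the 21-month fold exceeded the 13-month one. The fold was higher on the ipsilateral than on the contralateral side in 27.2% of members at 21 months, against 27.9% of all joined regions with a peak in both lists, and in 31.6% at 13 months, against 27.8%. The median ratio of ipsilateral to contralateral fold was 0.822 at 21 months and 0.868 at 13 months. The fold at 21 months exceeded that at 13 months in 71.1% of members on the ipsilateral side, against 57.9% of all such regions, and in 73.3% on the contralateral side, against 69.3%. The corresponding median ratios were 1.18 and 1.24. All 4 comparisons use the lists that chose the members, and a fold depends on the depth and background of its list, which differ here, so nothing is read from them.

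The strongest members are given as a description, since they were ranked by the lowest of the 4 untreated folds. The highest in this ranking lay at chromosome 11, 34309775 to 34313137 (3363 bp, 2178 bp from an H3K4me3 peak). It had folds of 4.29 and 4.20 with 3-month and 22-month plasma, 10.9 and 14.6 in 21-month ipsilateral and contralateral tissue, and 9.95 and 16.5 in 13-month ipsilateral and contralateral tissue. Its 4 untreated summits fell within 22 bp, so the same point was strongest in each list. The second and the tenth of this ranking were neighbours 706 bp apart on chromosome 12, at 9492081 to 9493118 and 9493824 to 9497281. In the longer one the folds were 7.16 and 4.01 with 3-month and 22-month plasma, 7.37 and 13.4 in 21-month ipsilateral and contralateral tissue, and 8.47 and 13.0 in 13-month tissue of these sides. All 10 members with the highest lowest fold, 7.37 to 9.95, had a peak in both plasma lists, against 13.6% of all members and 1.66% of all joined regions. The 10 were picked for high fold, so nothing is read from this count. The member at chromosome 15, 25529792 to 25533504, lay 85036 bp from the nearest H3K4me3 peak and still had an untreated fold of 7.43 or more. Coordinates are those of the lists, on a genome build that the sources do not name, so no gene or sequence was assigned to a member.

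Members lay close to one another. The nearest other member was a median of 5044 bp away, with 30.0% of members within 1000 bp and 61.0% within 10000 bp of another. Any other constitutive region lay within 10000 bp of 69.8% of members, against 57.3% of the short regions with H3K4me3, 85.1% of the long ones without and 87.4% of the long ones with H3K4me3. Regions of fewer than 4 lists filled the gaps: the nearest joined H3K27me3 region of any kind was a median of 236 bp away, against 508 bp for all joined regions, 96.5% of which had another within 10000 bp. A constitutive region of 5000 bp or longer lay within 10000 bp of 15.1% of members. There were 11723 members but only 522 such long regions without and 863 with H3K4me3, so nothing is read from the lower share. With peaks up to 500 bp apart also joined, the share within 10000 bp of another member was 32.8%. Narrow calling can split a broad domain, so separate short regions and pieces of a domain cannot be told apart here.

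With neighbours within 10000 bp counted as 1 run, the members formed 6843 runs, of which 4577 held a single member and 2266 held 2 or more. Runs of 10 or more numbered 40 and held 541 members (4.61%). The largest, at chromosome 10, 84555256 to 84616645, had 23 members that covered 42.6 kb of 61.4 kb, with a median lowest fold of 3.24. Of these 23, 12 had a peak with 3-month plasma and 17 with 22-month plasma, and 1 had an H3K9ac peak in untreated tissue. A further run of 16 members lay before it on chromosome 10, at 84461628 to 84534203. The next largest, 20 members on chromosome 12 at 42663248 to 42757574, had 7 with a peak with 3-month plasma and 3 with 22-month plasma. Runs of 19 and 18 members on chromosome 5, at 171873707 to 171948171 and 143411635 to 143490228, had 8 and 5 such members with 3-month plasma and 1 each with 22-month plasma. The fifth, 18 members on chromosome 3 at 170610852 to 170703889, had 10 with 3-month and 4 with 22-month plasma. From the 5 largest runs the nearest constitutive region of 5000 bp or longer lay 3564, 50668, 0, 312 and 11934 bp away, by rank. In the largest run the 22-month list thus held more members than the 3-month list. In the runs of 20, 19 and 18 members it held fewer. In the chromosome 10 run of 16 members each list held 10. Other runs of 16 members had 8 and 2 (chromosome 3) and 6 and 6 (chromosome 12) with 3-month and 22-month plasma. Over all members the shares were 31.5% and 23.8%, against 4.75% and 5.69% of all joined regions.

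**Figure D2:**
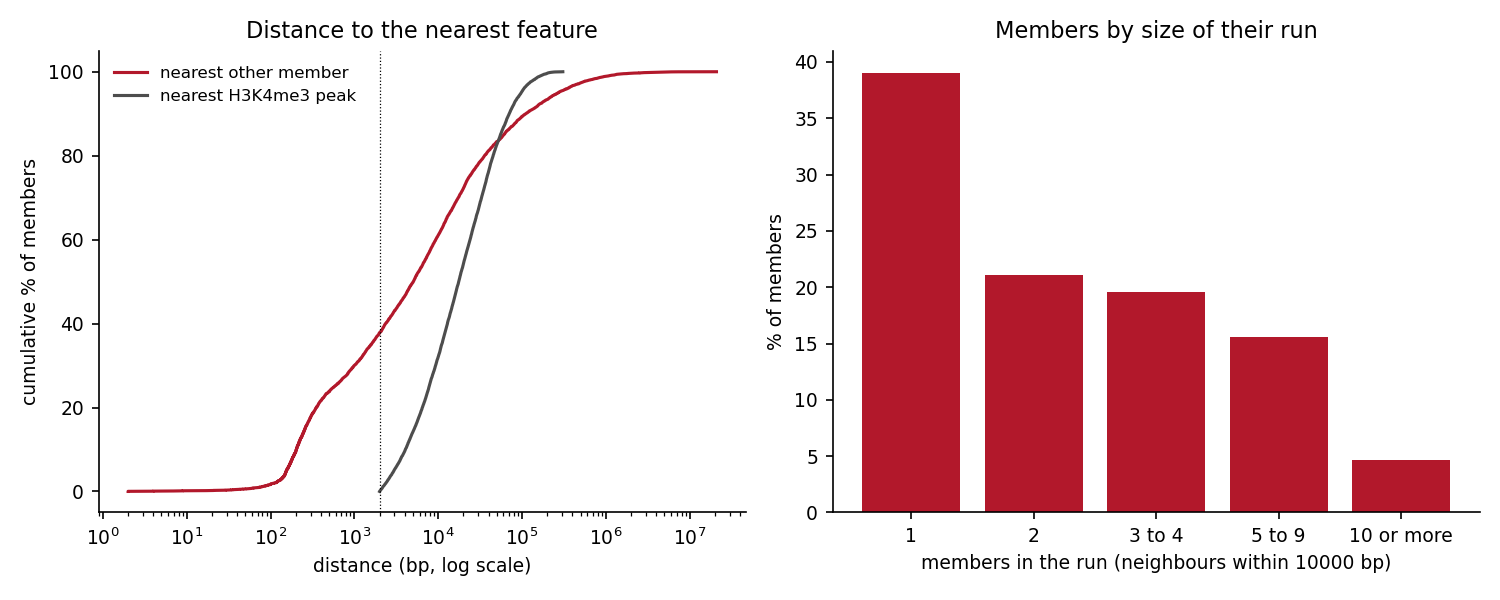
Left, cumulative share of members (%) by distance in bp (log scale) to the nearest other member (red) and to the nearest H3K4me3 peak of untreated tissue (grey); the dotted line marks the 2000 bp limit of the rule. Right, share of members (%) by the number of members in their run. Single members make up 39.0%, and the median distances are 5044 bp to another member and 17598 bp to H3K4me3.

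The members were spread unevenly over chromosomes. The 20 autosomes together held 4.46 members per Mb, with chromosome lengths taken as the highest peak end of any list. Chromosome 12 had 12.4 per Mb, chromosome 10 had 9.54 and chromosome 19 had 7.40, against 1.99 on chromosome 2. Density of members followed that of all joined regions (Pearson r = 0.89, Spearman rho = 0.83 over 20 autosomes, which share the same libraries). The range was wider for the members: they made up 4.78% of the joined regions on chromosome 12 and 1.38% on chromosome 2. The X chromosome held 40 members, 0.250 per Mb, and 23.7 joined regions of any kind per Mb, against 187 on autosomes. Of the constitutive regions, members were 23.1% on the X chromosome and 60.4% on autosomes. No member lay on the Y chromosome and 14 lay on unplaced scaffolds.

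**Figure D3:**
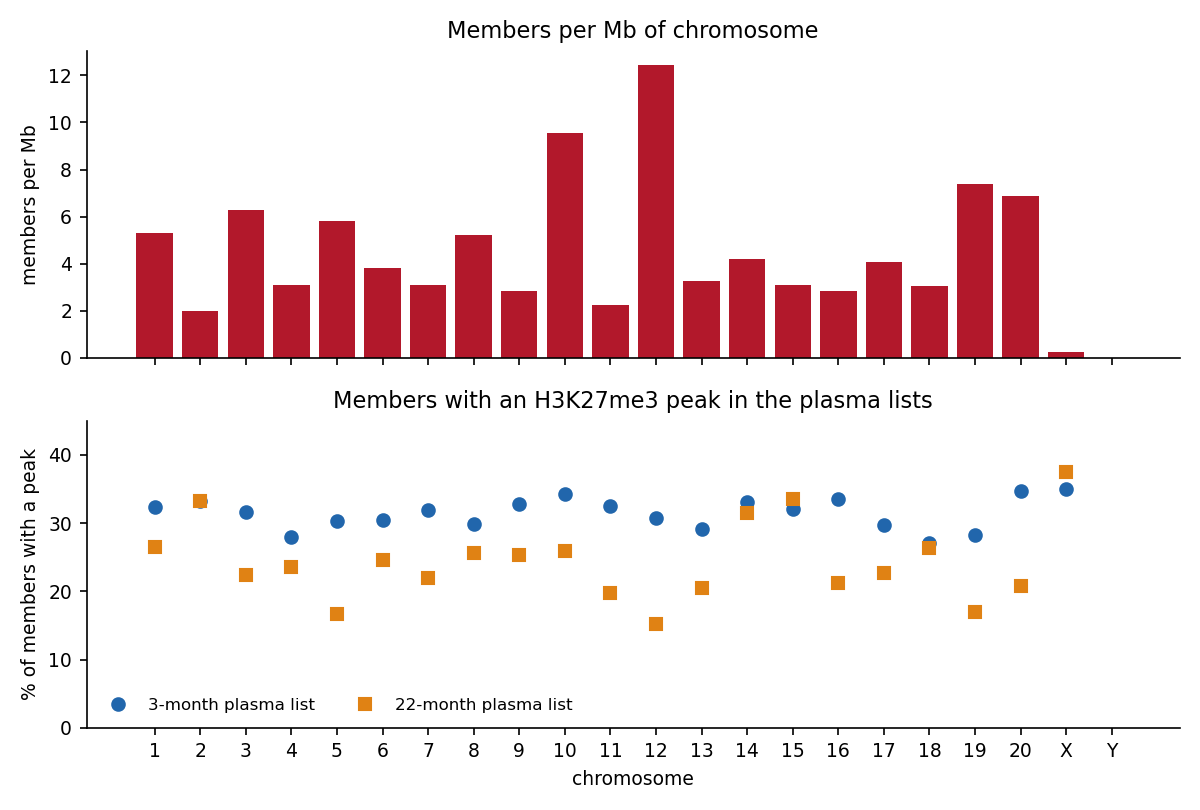
Top, members per Mb of each chromosome. Bottom, share of the members of each chromosome (%) with an H3K27me3 peak in the list with 3-month plasma (blue circles) and with 22-month plasma (orange squares). Chromosome 12 has the highest density (12.4 per Mb) and the lowest share with 22-month plasma (15.3%); the Y chromosome has no member.

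The rule kept only regions over 2000 bp from H3K4me3, so the distances are given as a description. The nearest H3K4me3 peak of any untreated list was a median of 17598 bp away, and the nearest region with an H3K4me3 peak in all 4 lists 41256 bp. Over 10000 bp from any H3K4me3 peak lay 68.0% of members, over 50000 bp 17.5% and over 100000 bp 4.76%. The long constitutive regions without H3K4me3, which met the same distance limit, had nearly the same median distance, 18619 bp. The 3 farthest members were neighbours on chromosome 7 between 128903375 and 128918899, 293630 to 306954 bp from H3K4me3. All 3 were weak, with lowest folds of 2.41 to 2.87, and only the one at 128915157 to 128918899 had a plasma peak, with a fold of 3.67 with 3-month plasma.

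H3K9ac over the members was sparse and weak, and the lists differed in it. An H3K9ac peak overlapped 1793 members (15.3%, 95% Wilson interval 14.7% to 16.0%) in at least 1 of the 4 untreated lists, against 8.70% of all joined regions. It did so in 73.5% of the short regions with H3K4me3, 27.6% of the long ones without and 80.5% of the long ones with H3K4me3. The members are longer than most joined regions, and the shares were also set side by side within bands of length. Below 1000 bp the share was 8.48% of members, against 7.06% of all joined regions of that length. From 1000 to 2000 bp it was 13.7% against 17.2%, from 2000 to 3000 bp 20.5% against 30.3%, and from 3000 to 5000 bp 23.6% against 43.1%. Above 1000 bp the share of members was thus below that of all regions of their length, which include those with H3K4me3. Among short regions without H3K4me3 and with a peak in 1 to 3 lists, the shares were 5.07%, 10.4%, 14.1% and 17.5% in these 4 bands, each below that of the members.

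By list, the share of members with H3K9ac was 0.734% with 3-month plasma and 13.8% with 22-month plasma, 9.95% and 2.84% in 21-month ipsilateral and contralateral tissue, and 2.92% and 7.62% in 13-month ipsilateral and contralateral tissue. Over all joined regions these shares were 1.94%, 6.98%, 5.91%, 3.70%, 3.34% and 4.99%. The members were thus above that background in 3 lists and below it in the other 3. From 1000 bp upward they were below all joined regions of their length in each of the 6 lists, and those include regions with H3K4me3. From 1000 to 2000 bp the members had 12.2%, against 15.5%, with 22-month plasma and 8.72%, against 12.7%, in 21-month ipsilateral tissue. In 13-month contralateral tissue they had 6.51%, against 11.0%. Short regions of that length without H3K4me3 and with an H3K27me3 peak in 1 to 3 untreated lists had 8.98%, 6.34% and 4.88%. The members were above such regions in each of the 4 length bands and each of the 6 lists. In all 4 untreated lists an H3K9ac peak was found in 67 members (0.572%), against 1.92% of all joined regions. In exactly 1 list it was found in 1137 members (9.70%), against 4.26% of all joined regions. The H3K9ac lists held 50651 peaks with 3-month and 123863 with 22-month plasma, 102607 and 120348 in 21-month ipsilateral and contralateral tissue, and 69557 and 93770 in 13-month ipsilateral and contralateral tissue. The larger list of the pair had the higher share of members with plasma and at 13 months, and the lower one at 21 months. With H3K9ac peaks of fold 3 or more, the shares at 21 months were 2.40% on the ipsilateral side, against 2.90% of all joined regions, and 0.648% on the other, against 1.80%. At 13 months they were then 2.66%, against 3.18%, and 3.69%, against 3.52%. With equal numbers of peaks they were 6.11% and 1.23% at 21 months, against 4.30% and 2.64% of all joined regions, and 2.92% and 4.94% at 13 months, against 3.34% and 3.99%. The ipsilateral side thus had the higher share at 21 months and the lower one at 13 months under each of these settings. Duplicates made up 82% of the 13-month ipsilateral ChIP tags, and the part of list size, depth and duplication in these shares was not tested. Where an H3K9ac peak overlapped a member its median fold was 2.50 to 3.69 by untreated list, against 3.15 to 6.02 in the short regions with H3K4me3.

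**Figure D4:**
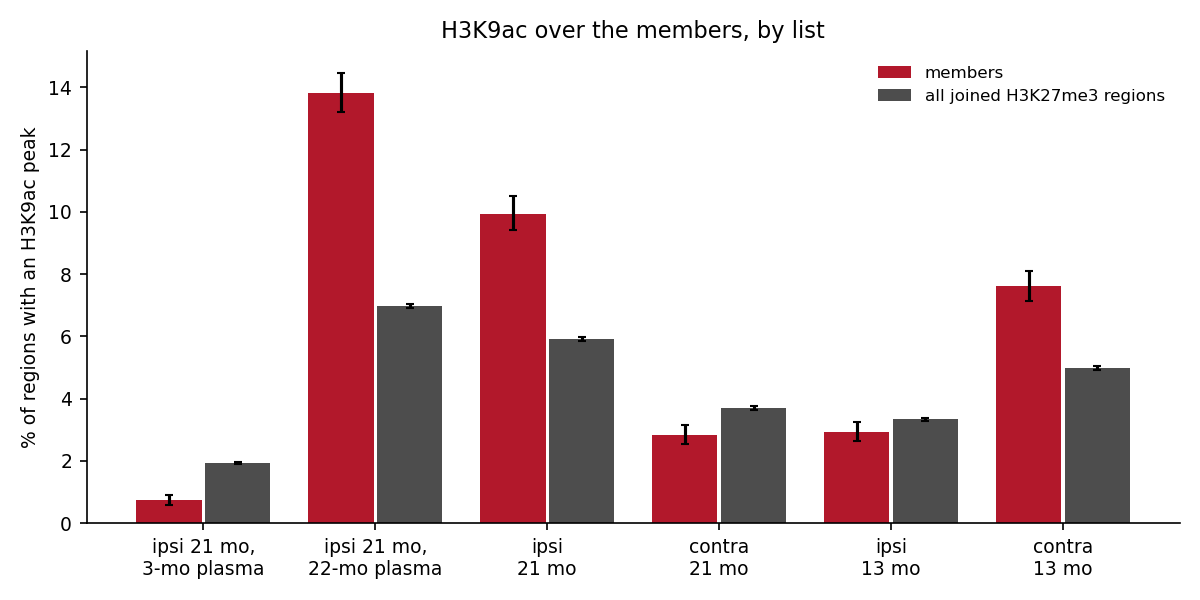
Share (%) of members (red) and of all joined H3K27me3 regions (grey) that an H3K9ac peak overlaps, in each of the 6 H3K9ac lists; bars are 95% Wilson intervals over regions, which cover counting error only. Members lie above all joined regions with 22-month plasma, in 21-month ipsilateral and in 13-month contralateral tissue, and below them in the other lists.

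The share with H3K9ac was higher nearer to H3K4me3. It overlapped 18.5% of members up to 10000 bp from an H3K4me3 peak, 15.0% of those over 10000 and up to 50000 bp away and 10.2% of those farther off. The median lengths of these members were alike, 1552.5, 1585.5 and 1592 bp. Of the 67 members with H3K9ac in all 4 untreated lists, the one with the highest H3K9ac fold lay at chromosome 3, 120186811 to 120188488. Its H3K9ac folds were 5.45 with 22-month plasma, 4.46 and 2.97 in 21-month ipsilateral and contralateral tissue, and 4.65 and 7.16 in 13-month ipsilateral and contralateral tissue, and the list with 3-month plasma had no peak there. Its H3K27me3 folds in the same untreated groups were 4.19, 6.38, 1.91 and 2.66. A further 2 of the 5 such members lay 14906 bp apart on chromosome 5, at 136235421 to 136236820 and 136251726 to 136252461, 71588 and 86175 bp from H3K4me3. None of the 5 had an H3K9ac peak with 3-month plasma, and all 5 had one with 22-month plasma. The 5 were picked for high H3K9ac, so nothing is read from this count. Of all members 0.734% and 13.8% had such a peak in these lists, and of all joined regions 1.94% and 6.98%.

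The plasma lists were not used to choose the members. A peak of the list with 3-month plasma overlapped 3691 members (31.5%, interval 30.7% to 32.3%), against 4.75% of all joined regions, and one of the list with 22-month plasma overlapped 2787 (23.8%, 23.0% to 24.6%), against 5.69%. All joined regions are mostly shorter, with a median of 383 bp against 1573 bp, and shares within bands of length are given below. In both lists 1594 members had a peak (13.6%, against 1.66% of all joined regions), in neither 6839 (58.3%, against 91.2%). The members with a peak with 3-month plasma alone numbered 2097 (17.9%, against 3.09% of all joined regions). Those with 22-month plasma alone numbered 1193 (10.2%, against 4.03%). The members held 12.5% of all peaks of the 3-month list and 7.22% of those of the 22-month list. Their folds there were alike, with medians of 3.22 and 3.23.

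Retention followed the number of untreated lists with a peak. Among short regions without H3K4me3, the shares with 3-month and 22-month plasma were 1.54% and 2.83% with a peak in 1 untreated list, 3.61% and 4.75% in 2, and 10.4% and 11.8% in 3. The 22-month share was the higher one in each of these, while among the members, with a peak in 4, the 3-month share was higher. With a peak in 4 lists, the short regions with H3K4me3 had shares of 56.8% and 43.5%, the long ones without 64.9% and 43.5%, and the long ones with H3K4me3 96.5% and 89.7%. The members thus had the lowest share of the 4 constitutive classes in both plasma lists.

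Taken alone, higher fold and greater length each went with higher retention in both lists. Within bands of fold, the 22-month share rose with length only at a lowest fold of 3 or more. Members with a lowest fold under 2 had a peak with 3-month plasma in 15.3% and with 22-month plasma in 9.03%. At folds of 3 to 4 the shares were 48.2% and 38.1%, and at 4 to 6 they were 82.8% and 75.1%. At 6 or more, 39 of 40 members had a peak in each list. By length, members under 1000 bp had 20.6% and 19.6%, against 2.85% and 4.32% of all joined regions of that length. From 1000 to 2000 bp members had 27.8% and 22.6%, against 12.8% and 11.8%. From 2000 to 3000 bp they had 37.9% and 25.7%, against 30.7% and 22.6%. Those of 3000 to 5000 bp had 50.4% and 31.3%, against 54.1% and 39.0%. All joined regions include those with H3K4me3. The lists were nearly level for the shortest members and farthest apart for the longest. At a lowest fold under 2.5 the 3-month share was 14.4% below 1000 bp and 28.7% from 3000 to 5000 bp, while the 22-month share was 12.6% and 8.46%. At a lowest fold of 2.5 to 3 these were 20.8% and 35.9% with 3-month plasma, and 20.6% and 16.0% with 22-month plasma.

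Within bands of fold and length the members had lower shares than the short regions with H3K4me3, except at a lowest fold of 2.5 to 3 and under 1000 bp in the 22-month list (20.6% against 20.1%). At a lowest fold of 3 or more, members under 1000 bp had shares of 37.2% and 37.0% with 3-month and 22-month plasma, against 54.0% and 40.5% where H3K4me3 was near. From 1000 to 2000 bp the members had 44.6% and 40.8%, against 66.8% and 50.6%. From 3000 to 5000 bp they had 68.3% and 50.0%, against 90.5% and 77.0%. At this fold the difference was smallest for the shortest regions in the 22-month list. The band of 3 or more has no upper limit, so fold is not closely matched within it. Over all lengths, members with a lowest fold of 3 to 4 had 48.2% and 38.1%, against 65.3% and 44.9%. At 4 to 6 they had 82.8% and 75.1%, against 90.9% and 79.6%. At 6 or more they had 97.5% in each list, against 99.3% and 96.4%, so the 22-month share was then the higher one in members.

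**Figure D5:**
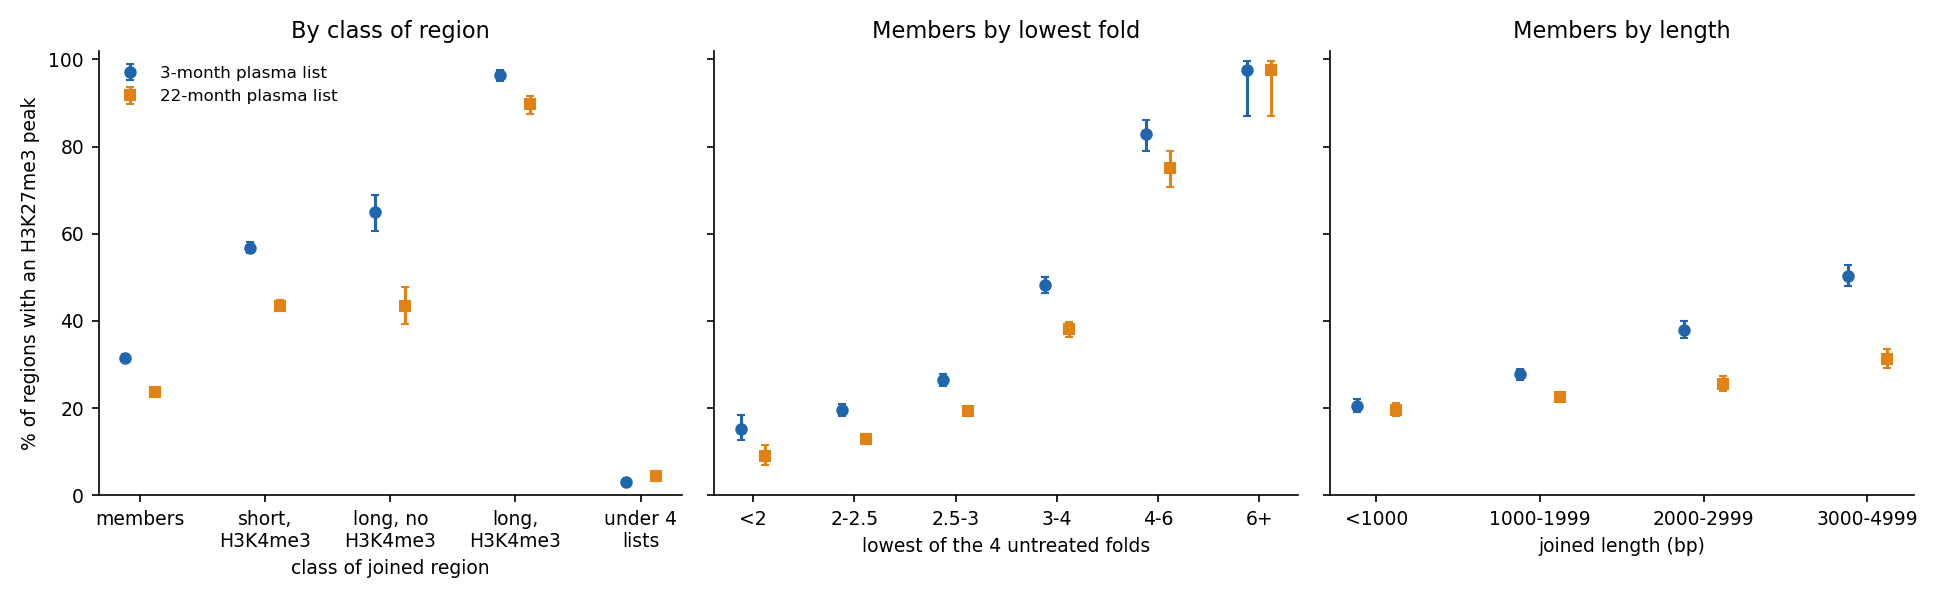
Share of regions (%) with an H3K27me3 peak in the list with 3-month plasma (blue circles) and with 22-month plasma (orange squares), with 95% Wilson intervals over regions. Left, by class of region: members, other constitutive classes, and regions with a peak in fewer than 4 untreated lists. Middle and right, members by the lowest of their 4 untreated folds and by joined length. Members stand at 31.5% and 23.8%, with 97.5% in both lists at a fold of 6 or more.

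Members within 10000 bp of a long constitutive region had a peak in 43.9% with 3-month and 34.0% with 22-month plasma, against 29.2% and 21.9% of those farther off. By run size the shares were 24.3% and 19.4% for single members and 45.7% and 29.8% in runs of 10 or more. By distance to H3K4me3 they were 36.5% and 29.5% at up to 10000 bp and 27.02% and 16.4% beyond 50000 bp. Members with H3K9ac in untreated tissue had 30.2% and 17.8%, those without 31.7% and 24.8%, so the 3-month shares were nearly equal and the 22-month shares were not. Clustered members and those nearer H3K4me3 thus had the higher shares in both lists. The median lowest fold was 2.74 at up to 10000 bp from H3K4me3 and 2.62 beyond 50000 bp. These groups were not matched for length or fold, and the part of either in the shares was not tested.

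The 3-month share was higher than the 22-month share on 18 of 20 autosomes, equal on chromosome 2 (33.3% each) and lower on chromosome 15 (32.1% and 33.5%). It varied little, between 27.1% on chromosome 18 and 34.7% on chromosome 20, while the 22-month share ran between 15.3% on chromosome 12 and 33.5% on chromosome 15. Over the 20 autosomes the density of members had a Pearson r of 0.062 and a Spearman rho of -0.045 with the 3-month share, and of -0.46 and -0.31 with the 22-month share, all from 1 library a list. The dense chromosomes 12 and 19 were among those with a low 22-month share (15.3% and 16.9%), while the dense chromosome 10 stood at 25.9%.

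The plasma lists differed in size. Cut to equal numbers of peaks, those with the highest −log10 q-value, the shares of members were 31.5% with 3-month and 18.5% with 22-month plasma, against 4.75% and 4.25% of all joined regions. With peaks of fold 3 or more they were 19.5% and 14.7%, against 3.25% and 4.03%. The untreated 21-month ipsilateral list, cut to the 37241 peaks of the 3-month list, held 61.9% of the members, and cut to the 51178 of the 22-month list 70.4%. That list chose the members, pools 2 libraries and kept 117740131 ChIP tags, against 41700562 and 44383604 in the plasma lists, so plasma and depth cannot be told apart. A further 16.7% of members had no overlapping peak with 3-month plasma but one within 2000 bp, and 14.3% with 22-month plasma.

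Ranked by the lowest fold over all 6 lists, plasma included, the highest member was at chromosome 12, 9452626 to 9457006. Its folds were 6.18 and 5.70 with 3-month and 22-month plasma, 5.99 and 11.4 in 21-month ipsilateral and contralateral tissue, and 8.90 and 13.5 in 13-month ipsilateral and contralateral tissue. A member of the X chromosome, at 107755752 to 107759867, had 7.64 and 5.34 with plasma, 7.82 and 7.56 at 21 months and 6.24 and 9.82 at 13 months in the same order of groups. Among members with no plasma peak the highest lowest fold was 5.06, at chromosome 1, 1395232 to 1395645, a region of 414 bp with untreated folds of 5.83, 9.96, 5.06 and 7.37. The next of this kind lay on the X chromosome at 156106904 to 156108566 (lowest fold 5.01) and on chromosome 13 at 91205422 to 91205728 (4.84, 307 bp long).

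Regions in narrow windows on either side of the limits had similar values. The 224 members of 4500 to under 5000 bp had a median lowest fold of 3.20 and plasma shares of 56.2% and 35.3%, and the 149 regions without H3K4me3 of 5000 to under 5500 bp had 3.15, 59.1% and 36.9%. The 310 members at most 2500 bp from H3K4me3 had 2.73, 40.6% and 31.9%, and the 314 short regions 1500 to 2000 bp from it had 2.86, 41.1% and 36.3%. The member just inside the length limit, 4999 bp at chromosome 3, 175777296 to 175782294, had a lowest fold of 3.68, and the region just outside, 5000 bp at chromosome 1, 211171245 to 211176244, had 2.43. Whether either limit marks a step was not tested. In the windows at the H3K4me3 limit the fold and both shares were lower in the members. At the length limit the shares were lower in the members and the fold was higher.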

How the data were processed

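Peak lists of H3K27me3, H3K9ac and H3K4me3 from rat brain were used as the authors deposited them, 16 lists from 28 ChIP and 28 input libraries. Per the labels' protocols, sonicated chromatin was immunoprecipitated, a ThruPLEX DNA-seq kit gave the libraries, and a NextSeq instrument read them. Tools named in the submitters' processing notes are Bowtie2, cutadapt and HOMER, with no version. Per the file headers, MACS 2.1.1.20160309 called narrow peaks for the authors (q-value cutoff 0.05, genome size 2.70 Gb, at most 1 tag kept per position). They pooled the libraries of a group first. Narrow calling can split a broad H3K27me3 domain into short peaks. The deposited fold enrichment is a ratio to the local background. The deposited pileup signal and −log10 p-value were not used, and the deposited −log10 q-value ranked or filtered peaks.

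Peaks were joined and overlapped (at least 1 bp) in Python (3.11.15; pandas 2.3.3, numpy 2.4.6, scipy 1.17.1, figures with matplotlib 3.10.9), and the joining was tested on simulated intervals. Shares have 95% Wilson intervals over regions, which cover counting error only and not the spread between animals. Groups were taken from the labels. The members, the classes and the limits were chosen with earlier results of these data known. Regions named were the 10 members with the highest lowest fold, the 5 highest over all 6 H3K27me3 lists, the 5 with the highest H3K9ac fold among those with H3K9ac in all 4 untreated lists, the 5 largest runs, the 3 farthest from H3K4me3, the 3 strongest without a plasma peak, and those at each limit. Not every one is printed. The runs of 16 members on chromosomes 10, 3 and 12 were named after their values were seen. Bands of length for H3K9ac, the edge windows and the values by chromosome were added after the data were seen. Alternatives were other joining, length and distance limits, stricter peaks, equal numbers of peaks and each untreated list left out. No genome of the lists' build was used here, so sequence features, sequences and genes are not given.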

Additional observations from a re-analysis of the deposited data

Results flagged for a closer look

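The side with more H3K9ac over the members was the opposite one at the 2 ages. At 21 months the share of members with an H3K9ac peak was 9.95% ipsilaterally and 2.84% contralaterally, a difference of 7.11 percentage points. At 13 months it was 2.92% and 7.62%, a difference of -4.70 points. Each value comes from 1 pooled list, and whether the differences are unequal was not tested. Over all joined regions the differences had the same signs, 2.21 and -1.65 points. With H3K9ac peaks of fold 3 or more the shares were 2.40% and 0.648% at 21 months and 2.66% and 3.69% at 13 months, and with equal numbers of peaks 6.11% and 1.23%, and 2.92% and 4.94%. Duplicates made up 22% of ipsilateral and 13% of contralateral ChIP tags at 21 months, and 82% and 55% at 13 months, and the part of duplication in these differences was not tested.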

How the results depend on the processing

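No value has replicate spread, and the depth of a list limits the peaks found in it. No paired analysis was possible because the libraries of a group were pooled before peak calling, and single libraries were not left out for the same reason. A value is given below where it left its 95% interval, or, for a number of members, changed by over 1.5 times, and the cause was not tested. Of 106 recomputed values, 76 did so and 30 did not. With all alternatives for choosing members, the share with 3-month plasma stayed above that with 22-month plasma, least so without the 13-month contralateral list.

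In the order number of members, share with 3-month plasma, with 22-month plasma, with H3K9ac, within 10000 bp of another member, median length and median distance to H3K4me3, joining peaks up to 500 bp apart gave 7492, 29.1%, 26.7%, 17.8%, 32.8%, 2643 bp and 18306 bp. H3K27me3 peaks of fold 3 or more gave 3365, 53.2%, 43.4%, 16.1%, 44.5%, 1965 bp and 14669 bp. Those of −log10 q-value 5 or more gave 3821, 48.1%, 34.9%, 19.8%, 42.4%, 1987 bp and 15591 bp. Equal numbers of peaks per untreated list gave 4739, 47.4%, 32.2%, 18.4%, 51.1%, 2061 bp and 16057 bp. Without the 13-month ipsilateral list the values were 20022, 21.2%, 16.0%, 14.1%, 63.9%, 1228 bp and 18815 bp, and without the 13-month contralateral list 38212, 17.4%, 16.6%, 9.26%, 77.5%, 1039.5 bp and 19539.5 bp. Without the 21-month ipsilateral or contralateral list only the length moved, to 1543 and 1517 bp.

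A length limit of 2000 bp gave 7566 members, 25.1% and 21.5% with 3-month and 22-month plasma, 11.7% with H3K9ac, 45.5% near another member and a length of 1175 bp. A limit of 10000 bp gave 32.8% with 3-month plasma, 62.8% near another member and 1626 bp. Asking only for no overlap with H3K4me3 gave 32.7%, 25.3%, 16.0% with H3K9ac, 63.0% near another member and 14558.5 bp to H3K4me3. Asking for none within 10000 bp gave 29.1%, 21.1%, 13.8%, 59.5% and 28940 bp.

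With an overlap of at least 50% of the shorter interval, the plasma shares were 30.4% and 22.7%. With plasma peaks of fold 3 or more they were 19.5% and 14.7%, and with equal numbers of peaks the 22-month share was 18.5%. The untreated 21-month ipsilateral list cut to the plasma lists' lengths, an alternative chosen after seeing the data, held 61.9% and 70.4%. The H3K9ac share was 20.2% with a peak within 1000 bp, 7.25% with peaks of fold 3 or more and 10.4% with equal numbers of peaks. Within 5000 bp of another member lay 49.7% of members and within 50000 bp 83.2%. To a region with H3K4me3 in all 4 lists the median distance was 41256 bp.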

Other observations

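Of the members, 30 (0.256%) had an H3K9ac peak with 3-month plasma only, 1564 (13.3%) with 22-month plasma only and 56 (0.478%) with both. This split was not made over all joined regions, of which 1.94% had a peak in the 3-month list and 6.98% in the 22-month list. These lists held 50651 and 123863 peaks, so nothing is read from the split. Of the members with an H3K9ac peak with 22-month plasma, 674 had one in untreated 21-month ipsilateral tissue as well. With 50651 peaks in each list the difference was narrower, at 0.734% of members with 3-month plasma, against 1.94% of all joined regions, and 4.15% with 22-month plasma, against 3.60%. At that number the untreated 21-month ipsilateral list held 3.89% of members, against 3.40%, and the contralateral one 0.691%, against 2.24%, so the 22-month and untreated ipsilateral shares were near those of all joined regions. In the short regions with H3K4me3 the H3K9ac shares were 46.4% with 3-month and 69.8% with 22-month plasma. Each plasma list rests on 1 ChIP library, so none of these differences was tested.

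Summits within members also shifted between lists. The strongest summit with 3-month plasma lay a median of 317 bp from that of untreated 21-month ipsilateral tissue, and with 22-month plasma 373 bp. In members with a peak in both plasma lists the 2 summits were a median of 428.5 bp apart.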
